A study of Mus musculus with 19 samples.

Results

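The classical activation and memory surface markers of the T cell are 7 genes: Cd44, Ly6c1, Ly6c2, Ly6a, Ly6e, Cd69 and Il2ra. They were found by symbol in the probe-to-gene table of the array, and every probe set whose symbol field held a member was taken, dim probe sets and probe sets with several symbols included. That gave 7 probe sets for 5 of the 7 genes, out of 12422 non-control probe sets for 8949 genes with a symbol. Cd44 had 3 probe sets (103003_i_at, 103004_r_at and 103005_s_at), Ly6e had 2 (101487_f_at and 101488_r_at), and Il2ra had 1 (101917_at). Ly6c1 and Ly6c2 shared 1 probe set, 93077_s_at, which therefore reads both genes together, and is called the Ly6c probe set here. Ly6a and Cd69 were not analysed here, since no probe set carried either symbol in the table used.

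The study transferred OT-I cells, CD8 T cells with a transgenic receptor for an ovalbumin peptide, into B6 mice and hybridised RNA of the recovered cells to 19 arrays. Cells from irradiated hosts were titled day 5 (n = 8), day 40 (n = 4) and day 115 (n = 3), and cells from unirradiated hosts (n = 4) were sorted at day 6. The source of all samples is labelled ln/spleen. The day-5 arrays are described as sorted at day 6, and for arrays 1 and 2 of that group the description leaves the transferred cell unnamed. The same transgenic receptor is named in all other descriptions, and the same host strain throughout. No unirradiated group was sampled at day 40 or day 115, so at those days the irradiated host and the time after transfer cannot be told apart. The labels do not say which samples came from separate animals, so p-values measure the spread between these samples, which may be technical.

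Naive T cells divide slowly when they enter a host with few lymphocytes, driven by self peptides and by the cytokines IL-7 and IL-15, and they take on surface features of memory cells without having met foreign antigen. CD44, a receptor for the matrix glycan hyaluronan, and Ly6C, a small lipid-anchored protein of the Ly6 family, are the usual stains for mouse memory CD8 T cells. CD69, which retains cells in tissue by drawing in the receptor S1PR1, and CD25, the alpha chain of the IL-2 receptor encoded by Il2ra, mark cells recently activated through their antigen receptor. Ly6a encodes Sca-1, and Ly6e encodes a family member first described on thymocytes; both are induced by interferon in many cells.

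In the RefSeq annotation of GRCm38.p6 the 4 Ly6 genes lay on chromosome 15 in the order Ly6e, Ly6a, Ly6c1 and Ly6c2. Cd44 and Il2ra lay on chromosome 2 and Cd69 on chromosome 6. The promoter table held Ly6c1, Ly6c2, Cd44 and Il2ra, with 2 listed starts for each Ly6c gene. The pair of Ly6c windows is shown because 1 probe set reads both genes. Each run is the 250 bases before a listed start, read 5′ to 3′ on the minus strand, and capitals mark bases inside the alignment of the pair that differ or face a gap. The first 31 bases of the Ly6c1 run and the last 25 of the Ly6c2 run lie outside the alignment and are in lower case without having been compared.
Ly6c1, chr15:75048838-75049087: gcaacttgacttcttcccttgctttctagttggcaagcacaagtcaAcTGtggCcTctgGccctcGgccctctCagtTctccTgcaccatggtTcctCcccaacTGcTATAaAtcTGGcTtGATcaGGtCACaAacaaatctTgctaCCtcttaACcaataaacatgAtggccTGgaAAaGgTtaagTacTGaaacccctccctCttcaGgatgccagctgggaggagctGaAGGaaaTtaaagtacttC
Ly6c2, chr15:75111972-75112221: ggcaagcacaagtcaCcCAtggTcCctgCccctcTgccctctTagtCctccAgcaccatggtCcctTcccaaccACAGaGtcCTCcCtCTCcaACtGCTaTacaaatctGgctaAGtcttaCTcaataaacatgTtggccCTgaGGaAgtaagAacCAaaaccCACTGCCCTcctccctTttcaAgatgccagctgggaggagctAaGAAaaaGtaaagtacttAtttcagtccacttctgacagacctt
The alignment had 228 columns, of which 164 were identical (71.9%), 52 were mismatches and 12 were gaps. A pair of motifs was searched on both strands of all 6 windows of 250 bases of the members: TTCNNNGAA, the pattern bound by STAT dimers, and GAAANNGAA, a core of the interferon-stimulated response element. Neither pattern was found in the windows of Ly6c1, Ly6c2, Cd44 or Il2ra. Among 32851 mouse promoter windows of the same length, 7.02% held the first and 7.13% the second.

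The signals are deposited array intensities on a linear scale, from 7.68 to 13242.3 over the table, with array medians between 49.6 and 53.7. Differences in brightness between probe sets were not read as differences in RNA amount. Tests used log2(signal + 16) in 1 limma model of all 19 arrays, on the 8695 probe sets with a mean signal above 26.4, and a change means an adjusted p under 0.05. The Ly6c probe set and both Ly6e probe sets were tested there. The 3 Cd44 probe sets and Il2ra lay below that level, so their tests came from the same model without the filter, on all 12422 probe sets. The arrays fell into 2 clusters by their overall correlation that cut across the groups. The first cluster took in all day-115 arrays, arrays 1 and 2 of day 40 and arrays 1 to 3 of day 5. The second took in the remaining day-5 and day-40 arrays (4 to 8 and 3 to 4) and every unirradiated array. The median correlation between arrays was 0.974 within a group and cluster, 0.884 within a group across clusters and 0.962 across groups within a cluster. No source used here says what the clusters stand for, and a model with the cluster as a second factor (the cluster term) gives further values beside the results below. No cluster holds both day-115 and unirradiated arrays, so for that comparison there is no value within a cluster.

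The labelled CD8 T cell was checked against 8 markers. All 7 that were on the array were tested, and none changed against unirradiated hosts at any day. Their summed signal was 8158 to 13633 at day 5, 7694 to 12934 at day 40, 8561 to 10292 at day 115 and 8123 to 9264 in unirradiated hosts. Transcripts of other cell types were also present. Of 12 tested B cell markers, 6 rose at day 115 against unirradiated hosts, and of 4 tested plasma cell markers 2 rose (Txndc5 and Jchain). Over all tested probe sets 15.1% rose there. The plasma cell markers Sdc1 (39.6 at day 115 and 36.5 in unirradiated hosts) and Xbp1 (34.8 and 47) did not pass. None of either list changed at day 5 or day 40 against unirradiated hosts. The immunoglobulin kappa gene Igkv6-23, in neither list, did pass at day 40. It averaged 68 at day 5, 186 at day 40, 630 at day 115 and 40.8 in unirradiated hosts. Its log2 difference by limma was 1.75 at day 40 (adjusted p = 0.0197) and 3.31 at day 115 (adjusted p = 4.75e-05). No cluster-term value is given for it. The cluster term left 1 B cell marker, Txndc5 and Jchain up at day 115, and put 1 B cell marker up at day 40. Summed B cell markers were 1626 to 3386 at day 5, 1991 to 3825 at day 40, 3170 to 5062 at day 115 and 1390 to 1660 in unirradiated hosts. The largest rises in the list were those of H2-Aa, at 431 ± 308 at day 115 and 90 ± 49.4 in unirradiated hosts, Ighm, at 1940 ± 319 and 500 ± 41.6, and Cd74, at 285 ± 161 and 80.7 ± 3.66 (SD, n = 3 and 4). Of these Ighm alone, the IgM heavy chain gene, passed with the cluster term (0.95, adjusted p = 0.00725), and its 8 other tested probe sets stood between −0.02 and 0.85 in the first model. Cd79a, a chain of the B cell receptor, read 156 ± 10.7 at day 115 and 136 ± 11.3 in unirradiated hosts and did not pass. Summed plasma cell markers were 204 to 386, 283 to 815, 881 to 1185 and 195 to 272 for the same groups in that order. Most of the day-115 sum was Txndc5, with a mean of 860 at day 115 and 112 in unirradiated hosts. Neutrophil and myeloid markers, from cells that also carry Ly6C or its relative Ly6G, did not pass the test in any of 7 and 6 tested genes at any day against unirradiated hosts, and Ly6g had mean signals of 29.6 at day 5, 28.1 at day 40, 30 at day 115 and 26.8 in unirradiated hosts. Markers of CD4 and regulatory T cells gave 0 changes among 2 tested genes. Of 6 tested stromal and vessel markers 1 changed at day 115, a fall of Col1a1 (121 against 172 in unirradiated hosts). Only 1 of 5 NK cell markers had a probe set of its own, and it did not pass the filter, so these cells could not be assessed. In bulk RNA, fewer cells of a type and less RNA per cell cannot be told apart, and the part of these markers in the members' results was not tested.

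Ly6c, the standard memory marker of mouse CD8 T cells, was higher at all 3 days after transfer into irradiated hosts than in unirradiated hosts, by 1.59-fold at day 5, 2.11-fold at day 40 and 2.34-fold at day 115. At day 5 its signal ranged from 3754 to 5711 with a median of 4780 over 8 arrays. At day 40 the 4 arrays read 6754, 5281, 6486 and 6896, and at day 115 the 3 arrays read 6680.3, 8395 and 6155. The 4 unirradiated arrays read 2848, 3089.9, 2819 and 3204. Every array of each irradiated group lay above every unirradiated array, and the unirradiated arrays were also the closest to one another. Group means were 4800 ± 713, 6350 ± 735, 7080 ± 1170 and 2990 ± 187 (SD).

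**Figure D1:**
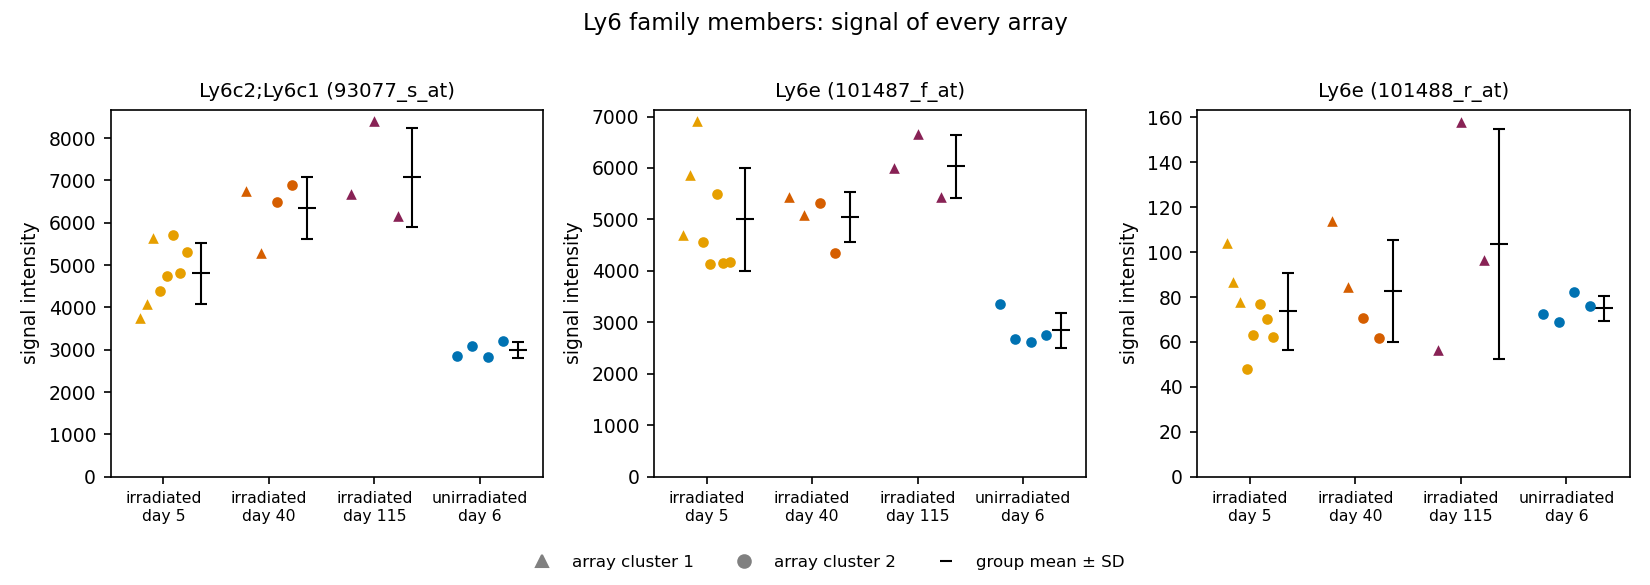
Signal intensity (linear scale, from 0) of the tested Ly6 probe sets on every array, by group, with triangles for arrays of cluster 1 and circles for arrays of cluster 2; bars are the group mean ± SD. In the Ly6c and the 101487_f_at panels all irradiated arrays lie above all unirradiated arrays, and in the 101488_r_at panel the groups overlap.

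All 3 differences of the Ly6c probe set passed the test. At day 5 the log2 difference from unirradiated hosts was 0.67 ± 0.13 (SE; 95% interval 0.39 to 0.95; adjusted p = 0.0223). At day 40 it was 1.08 ± 0.15 (0.76 to 1.40; adjusted p = 0.000636), and at day 115 it was 1.23 ± 0.16 (0.88 to 1.57; adjusted p = 0.000149). The comparisons share the 4 unirradiated arrays, and the median difference of all tested probe sets was between 0.01 and 0.03 in each. By size of rise the probe set stood at rank 159 of 8695 at day 5, 70 at day 40 and 226 at day 115. The call at day 5 was the least firm. Its adjusted p was 0.0546 after quantile normalisation, 0.051 with only the compared groups in the model, and between 0.0526 and 0.0897 when any 1 of the 4 unirradiated arrays was left out.

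In the model with the cluster term the log2 difference from unirradiated hosts was 0.73 at day 5 (adjusted p = 0.00403), 1.16 at day 40 (adjusted p = 0.000125) and 1.39 at day 115 (adjusted p = 0.00023). Within cluster 2 alone, the 5 day-5 arrays stood 0.73 above the 4 unirradiated arrays (adjusted p = 0.00677) and the 2 day-40 arrays stood 1.16 above them (adjusted p = 0.000657), so at those days the difference was as large within that cluster as over all arrays. Cluster 2 means were 4990 at day 5, 6690 at day 40 and 2990 in unirradiated hosts, and cluster 1 means were 4490 at day 5, 6020 at day 40 and 7080 at day 115. In both clusters the day-40 mean lay above the day-5 mean.

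Between irradiated groups, Ly6c was higher at day 115 than at day 5 by 1.47-fold. The log2 difference was 0.56 ± 0.15 (0.25 to 0.86; adjusted p = 0.0171), and the lowest day-115 array, 6155, lay above the highest day-5 array, 5711. It was 0.66 with the cluster as a term (adjusted p = 0.00766). The same size of 0.66 within cluster 1, on 3 arrays a group, did not pass (adjusted p = 0.127), nor did the difference without day-115 array 2 (adjusted p = 0.109), with only the compared groups in the model (adjusted p = 0.0631), or with the replicate number as a block (adjusted p = 0.0665). Day 40 stood 0.41 ± 0.13 above day 5 (0.13 to 0.69; adjusted p = 0.14), which passed only with the cluster as a term (0.43, adjusted p = 0.0327). The difference between day 115 and day 40 was 0.15 ± 0.16 (−0.19 to 0.50; adjusted p = 0.668). In order of level the groups ran from day 115 through day 40 and day 5 to unirradiated hosts, and the neighbours day 115 and day 40, and day 40 and day 5, did not differ past the threshold in the model with the group alone.

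Ly6e, read by 101487_f_at, was also higher at every day, but its level at day 5 was close to that at day 40. The suffix f marks a probe set that the array's maker designed against a family of similar genes. At day 5 its signal ranged from 4125 to 6915 with a median of 4630 over 8 arrays. The 4 day-40 arrays read 5427, 5089, 5326 and 4348, and the 3 day-115 arrays read 6004, 6663 and 5429. The 4 unirradiated arrays read 3351, 2676, 2615 and 2762. No irradiated array came down to the highest unirradiated one. Means were 5000 ± 1010 at day 5, 5050 ± 487 at day 40, 6030 ± 618 at day 115 and 2850 ± 339 in unirradiated hosts (SD).

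The rise of this Ly6e probe set over unirradiated hosts was 1.73-fold at day 5, 1.77-fold at day 40 and 2.11-fold at day 115. The log2 differences were 0.79 ± 0.14 (0.49 to 1.09; adjusted p = 0.0115), 0.82 ± 0.17 (0.47 to 1.17; adjusted p = 0.0155) and 1.08 ± 0.18 (0.70 to 1.45; adjusted p = 0.000984). With the cluster term they were 0.69 at day 5 (adjusted p = 0.00644), 0.68 at day 40 (adjusted p = 0.0164) and 0.80 at day 115 (adjusted p = 0.022). Within cluster 2 the difference was 0.66 at day 5 (adjusted p = 0.0226) and 0.76 at day 40 (adjusted p = 0.0156). The day-5 call was lost with only the compared groups in the model (adjusted p = 0.051) and without unirradiated array 3 (0.0612) or 4 (0.0571). The day-40 call of this probe set was lost after quantile normalisation (adjusted p = 0.0517), without day-40 array 1 (0.0554) and without unirradiated array 2 (0.0504), 3 (0.0628) or 4 (0.0529).

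No pair of irradiated groups differed past the threshold in this Ly6e probe set. Day 40 minus day 5 was 0.03 ± 0.14 (−0.27 to 0.33; adjusted p = 0.984), and the sign of this small difference turned with the cluster as a term. Day 115 minus day 5 was 0.29 ± 0.16 (−0.05 to 0.62; adjusted p = 0.219), and day 115 minus day 40 was 0.26 ± 0.18 (−0.12 to 0.63; adjusted p = 0.505). The order of means was day 115, day 40, day 5 and unirradiated hosts, and the neighbours among the irradiated groups did not differ past the threshold. At day 5 the 3 arrays of cluster 1 averaged 5830 (4702 to 6915) and the 5 of cluster 2 averaged 4510 (4125 to 5499), and the 2 ranges overlapped.

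The other Ly6e probe set, 101488_r_at, did not change in any comparison. Its suffix r marks a probe set for which the maker had to drop some of its design rules. It ranged from 47.9 to 104 at day 5 with a median of 73.8. It read 114, 84.4, 70.5 and 62 on the 4 day-40 arrays and 56.5, 158 and 96.4 on the 3 day-115 arrays. It read 72.6, 69, 82.4 and 75.9 on the 4 unirradiated arrays, within the range of every irradiated group. The log2 differences from unirradiated hosts were −0.04 ± 0.19 at day 5 (−0.44 to 0.36; adjusted p = 0.927), 0.09 ± 0.22 at day 40 (−0.37 to 0.55; adjusted p = 0.857) and 0.31 ± 0.24 at day 115 (−0.19 to 0.80; adjusted p = 0.342). The 2 probe sets of Ly6e therefore disagree, and over the 19 arrays their log2 signals had a Pearson correlation of 0.315. The Ly6c probe set correlated at 0.804 with 101487_f_at and at 0.247 with 101488_r_at over the same arrays, which share their groups and clusters.

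**Figure D2:**
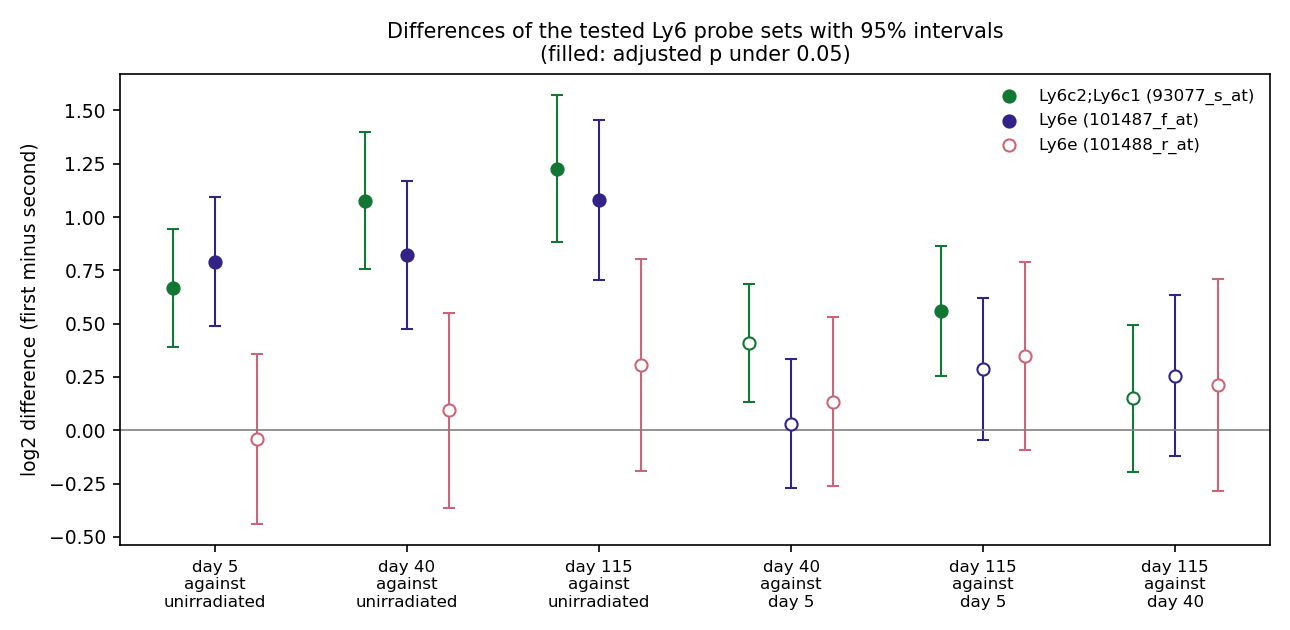
Log2 difference (first group minus second) of each tested Ly6 probe set in the 6 comparisons, with 95% intervals; filled points passed an adjusted p of 0.05. The Ly6c and 101487_f_at points are filled against unirradiated hosts at all 3 days, Ly6c alone is filled for day 115 against day 5, and every 101488_r_at interval spans 0.

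Set against the background, 2 of the 3 tested member probe sets rose at each day. Over all 8695 tested probe sets, 0.414% rose at day 5, 1.16% at day 40 and 15.1% at day 115 against unirradiated hosts. The same 2 rose with the cluster term at each day, against backgrounds of 1% at day 5, 1.81% at day 40 and 3.15% at day 115. Within cluster 2 the 2 again rose at both days it covers, against 0.909% at day 5 and 4.05% at day 40. The same 2 had every irradiated array above every unirradiated array, as did 1.77% of tested probe sets at day 5, 8.6% at day 40 and 21.7% at day 115. For day 115 against day 5, 1 of the 3 rose, against 8.23% of all tested, and 1 of 3 had no overlap, against 5.78%; with the cluster as a term 1 of 3 rose, against 7.23%. For day 40 against day 5, 0 of 3 changed, against 1.25% of all tested, and with the cluster as a term 1 of 3 rose, against 5.14%. For day 115 against day 40, 0 of 3 changed by limma (0 at an unadjusted p under 0.05 too), where only 0.092% of all tested did.

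Cd44, the hyaluronan receptor by which memory T cells are most often gated, was dim in all 3 probe sets. Over all arrays 103003_i_at ranged from 8.83 to 11.99 and 103004_r_at from 9.83 to 13.99, at the bottom of the table. Group means of 103003_i_at were 9.47 at day 5, 10.4 at day 40, 10.7 at day 115 and 9.45 in unirradiated hosts, and those of 103004_r_at were 11.6, 11.2, 12.7 and 11.9 for the same groups in that order. The suffix i marks a probe set with fewer probes than the design asked for. Neither passed the test in any of the 6 comparisons. At these signals no level of Cd44 RNA can be read from them.

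The third Cd44 probe set, 103005_s_at, was brighter at day 115, still near the filter level. At day 5 it ranged from 14.1 to 26.1 with a median of 16.2. It read 23.4, 29.3, 16.6 and 16.9 on the day-40 arrays and 19.6, 38.5 and 35.3 on the day-115 arrays. It read 14.8, 15.4, 14.9 and 18.7 on the unirradiated arrays. All day-115 arrays lay above all unirradiated arrays, while the day-5 and day-40 groups overlapped the unirradiated hosts. Means were 18.2 ± 4.15, 21.5 ± 6.04, 31.1 ± 10.2 and 15.9 ± 1.85 (SD).

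In the model without the filter 103005_s_at rose at day 115 by 0.54 ± 0.14 on the log2(signal + 16) scale over unirradiated hosts (0.25 to 0.83; adjusted p = 0.0117), where 14.3% of all 12422 probe sets rose and 20.5% had every day-115 array above every unirradiated one. It rose by 0.44 ± 0.12 over day 5 (0.19 to 0.70; adjusted p = 0.0212), where 10.5% rose. The added 16 is about as large as the signal, so these differences understate the ratio of the signals. The signal followed the array clusters: at day 5 it averaged 22.7 in cluster 1 and 15.6 in cluster 2, and at day 40 it averaged 26.3 and 16.7. The difference from unirradiated hosts was 0.22 with the cluster term (adjusted p = 0.349) and that from day 5 was 0.25 (adjusted p = 0.117), so neither call held. Both were also lost without day-115 array 2 (adjusted p = 0.0548 and 0.123) or array 3 (0.0543 and 0.112). The differences from unirradiated hosts at day 5, 0.09 ± 0.11, and at day 40, 0.22 ± 0.13, did not pass (adjusted p = 0.785 and 0.499).

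Il2ra, the chain that gives the IL-2 receptor its high affinity, stayed dim throughout. Its signal was 11 to 13.3 at day 5 with a median of 12.3. It read between 12.1 and 14.7 on the day-40 arrays, between 12.2 and 18.5 on the day-115 arrays and between 11.4 and 14.2 on the unirradiated arrays, so all groups overlapped. Means were 12.3 ± 0.796, 13.2 ± 1.22, 14.8 ± 3.27 and 13.3 ± 1.26 (SD). The log2 difference from unirradiated hosts was −0.05 ± 0.04 at day 5 (adjusted p = 0.715), 0.00 ± 0.05 at day 40 (adjusted p = 0.988) and 0.07 ± 0.05 at day 115 (adjusted p = 0.356), and no comparison between irradiated groups passed, nor did any with the cluster term. On the mean over all arrays, 7.32% of probe sets were dimmer than Il2ra, so a change in a low transcript was not detectable at this signal.

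**Figure D3:**
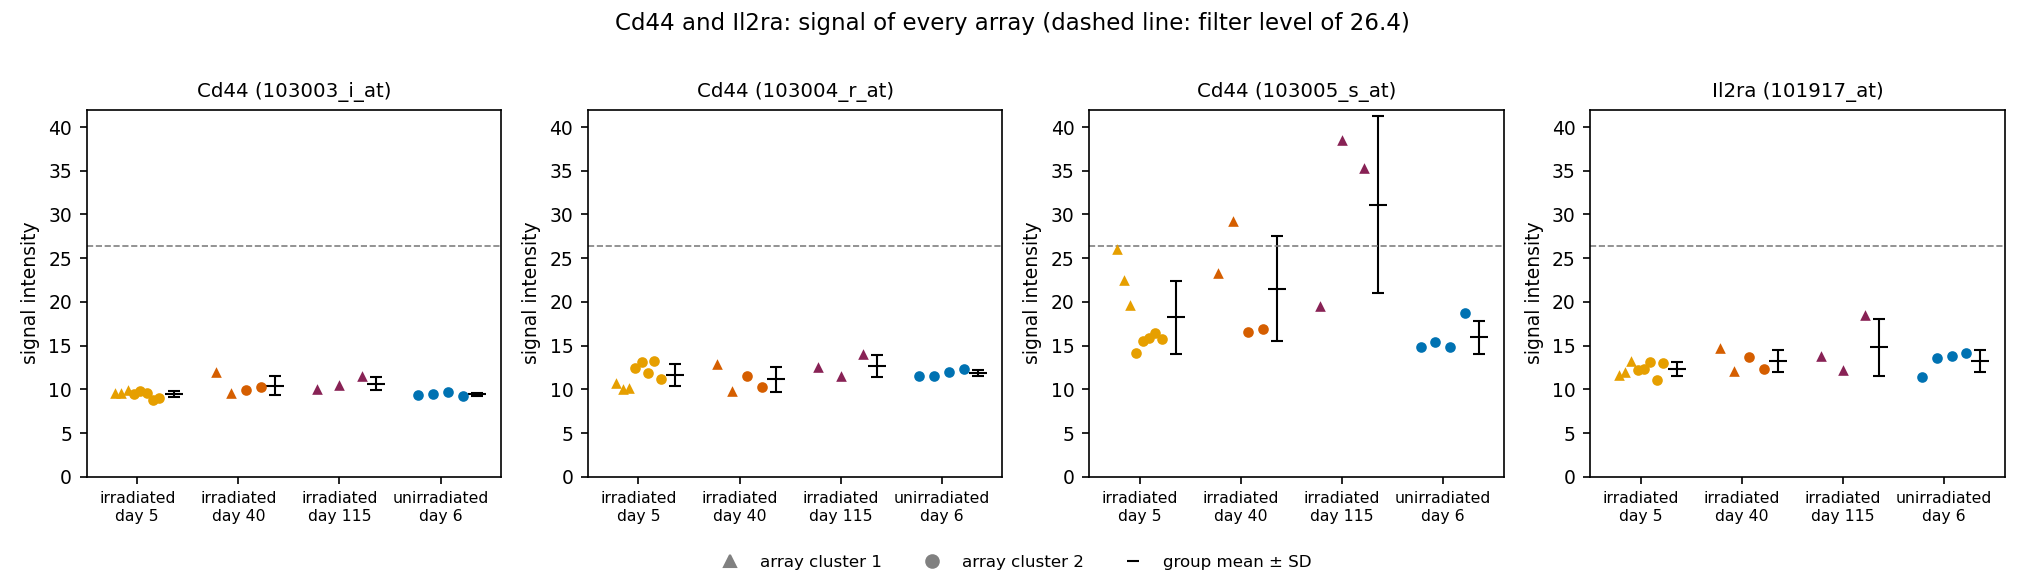
Signal intensity (linear scale, from 0) of the Cd44 and Il2ra probe sets on every array, by group, with triangles for cluster 1 and circles for cluster 2; bars are the group mean ± SD and the dashed line is the filter level of 26.4. Points of 103005_s_at above the line are day-40 array 2 and day-115 arrays 2 and 3, all in cluster 1.

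Genes that work with these markers are described from lists chosen with earlier results of these data known. The list counts stand beside those of all 8695 tested probe sets. Against unirradiated hosts, 36 of these rose and 33 fell at day 5, 101 and 29 at day 40, and 1310 and 1117 at day 115. For day 115 against day 5, 716 rose and 489 fell. Whether a list differs from these shares was not tested. Of 18 genes listed with the Ly6 and uPAR family, 8 were tested, including Thy1, which is not itself a member of that family. None changed at day 5 or day 40, and 2 rose at day 115 against unirradiated hosts, where the list's median difference was 0.07 and that of all tested probe sets was 0.01. Thy1, an abundant T cell glycoprotein, averaged 2100 ± 205 at day 115 and 998 ± 212 in unirradiated hosts (SD, n = 3 and 4). That is 1.08 ± 0.23 on the log2 scale (adjusted p = 0.00366), and 1.01 in the cluster model (adjusted p = 0.0411). Thy1 at day 115 was also 0.80 ± 0.20 above day 5 (adjusted p = 0.0149). That call was lost without day-115 array 1 (adjusted p = 0.0632), with the replicate number as a block (0.0634) and within cluster 1 (0.0614). Ly6d, better known from the skin and from B cell precursors, rose by 0.57 ± 0.17 (adjusted p = 0.0232), and this fell to 0.10 with the cluster as a term (adjusted p = 0.666).

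In the IL-2 receptor axis, with 20 tested genes of 26, single genes moved while Il2ra stayed dim. At day 5, 1 gene fell: Il7r, the IL-7 receptor alpha chain that naive and memory cells need to survive, averaged 787 ± 189 at day 5 and 1780 ± 399 in unirradiated hosts (log2 difference −1.17 ± 0.25, adjusted p = 0.0348). That call was lost without any 1 unirradiated array (adjusted p up to 0.188) and without day-5 array 1, 2, 3, 5 or 6. At day 40 Il7r averaged 2240 ± 697, higher than at day 5 by 1.47 ± 0.25 (adjusted p = 0.00545), and Il4ra, the IL-4 receptor alpha chain, rose over unirradiated hosts by 1.17 ± 0.27 (adjusted p = 0.0383; up to 0.142 with 1 array left out). A second tested probe set of Il4ra stood at −0.16 at day 40 and at −0.16 at day 115, and at −0.06 for day 115 against day 5, so the gene's rises rest on 1 probe set. The cluster term gave −0.99 for the Il7r fall (adjusted p = 0.0275), 1.53 for Il7r between day 40 and day 5 (adjusted p = 0.000338) and 0.75 for Il4ra at day 40 (adjusted p = 0.00892). At day 115, 6 genes rose and 0 fell against unirradiated hosts, where 15.1% of all tested probe sets rose. Il4ra was up by 1.97 ± 0.30 (adjusted p = 0.000462), the receptor kinase gene Jak3 by 1.58 ± 0.37 (0.00614) and the STAT5 target Pim1 by 1.34 ± 0.46 (0.0373, with 0.35 in its second probe set). In the cluster model 2 of the 20 rose, Il4ra by 1.15 (adjusted p = 0.00233), while Jak3 stood at 0.62 (0.194) and Pim1 at −0.04 (0.939). Against day 5, 3 rose at day 115, namely Il4ra (1.45), Jak3 (1.0) and Stat5a (0.62), of which only Il4ra passed with the cluster term (0.94, adjusted p = 0.00097). The Jak3 and Stat5a calls each held in 3 of 11 runs with 1 array left out. Both were lost with only the compared groups in the model (adjusted p = 0.0977 and 0.0858). The list medians against unirradiated hosts were 0.19, 0.23 and 0.23 at days 5, 40 and 115.

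Of 29 interferon response genes, 22 were tested, and at day 5 and day 40 none changed against unirradiated hosts by limma, with list medians of 0.22 and 0.10. At day 115, 4 rose and 6 fell, with a median of 0.04, where 1310 and 1117 of all 8695 tested probe sets did. The largest were Gbp3, an interferon-induced GTPase (−1.39 ± 0.46, adjusted p = 0.0317), Tap1, the peptide transporter for MHC class I (1.26 ± 0.33, adjusted p = 0.0115), and Irf7, a transcription factor of the response (1.06 ± 0.26, adjusted p = 0.00885). A second tested probe set stood at 0.10 for Tap1 and 0.25 for Irf7. None of those 3 passed with the cluster term, and 0 rose and 2 fell in the list. Against day 5, 5 fell at day 115 and 0 rose, and the median was −0.25. Ifi47 averaged 411 ± 65.5 at day 115 and 991 ± 153 at day 5 (−1.24 ± 0.21, adjusted p = 0.00154), Isg15 averaged 84.8 ± 16.3 and 177 ± 39.2 (−0.92 ± 0.16, adjusted p = 0.00194), and Ifi27l2a fell by 0.87 (adjusted p = 0.0353, and 0.0778 to 0.106 without any 1 day-115 array). The cluster term gave −0.95 for Ifi47, −1.0 for Isg15 and −1.31 for Ifi27l2a, all past the threshold. Isg15 was also lower at day 40 than at day 5 (−0.76 ± 0.15, adjusted p = 0.0132), and stood at −0.78 with the cluster term (adjusted p = 0.00286). That call was lost without day-40 array 4 (adjusted p = 0.0862), with only the compared groups in the model (0.0595), within cluster 1 (0.338) and within cluster 2 (0.0628). Over the same pair of days, day 115 against day 5, the Ly6c probe set rose and 101487_f_at stood at 0.29. Whether the members' levels are related to those of the interferon genes was not tested.

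The list of 16 partners of CD44 held 13 tested genes. None changed at day 5, and at day 40 Itga4, the alpha 4 integrin chain, averaged 21.3 ± 3.87 against 46.6 ± 4.93 in unirradiated hosts (−0.75 ± 0.13, adjusted p = 0.0031; −0.59 with the cluster term, adjusted p = 0.00149). Its means at day 40 and day 115, 21.3 and 18.9, lay under the filter level of 26.4, which it passed through the brighter day-5 and unirradiated arrays (29.8 and 46.6), so its falls end at dim signals. At day 115, 1 rose and 3 fell, the falls being Itga4 (−0.84, adjusted p = 0.000812) and the genes of 2 linkers between membrane and actin, Rdx (−1.59, adjusted p = 0.0141) and Ezr (−0.63, adjusted p = 0.0255). Only 1 of 13 fell with the cluster term, Itga4 (−0.52, adjusted p = 0.0218). In the retention axis of CD69, 7 of 11 genes were tested, and none changed at day 5 or day 40. At day 115 S1pr4 rose by 1.39 (adjusted p = 0.00902) and S1pr1, the exit receptor that CD69 draws in, fell by 0.72 (adjusted p = 0.00904). Neither passed with the cluster as a term (adjusted p = 0.293 and 0.304).

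Among 34 other surface molecules of T cells, 26 were tested. At day 5, 1 rose and 1 fell against unirradiated hosts, at day 40, 3 rose and 1 fell, and at day 115, 9 rose and 4 fell (4 and 1 with the cluster as a term). The list medians were 0.04, 0.16 and 0.33. Cxcr3, a receptor by which effector and memory cells follow interferon-induced chemokines, rose at all 3 days, with mean signals of 560 ± 166 at day 5, 1030 ± 152 at day 40, 1320 ± 174 at day 115 and 160 ± 22 in unirradiated hosts. Its log2 differences were 1.66 ± 0.20 (adjusted p = 0.000423), 2.56 ± 0.24 (4.66e-06) and 2.93 ± 0.25 (1.41e-06), and they were 1.58, 2.45 and 2.70 with the cluster as a term. Il18r1, which encodes the binding chain for IL-18, rose at day 40 by 1.5 ± 0.21 over unirradiated hosts (adjusted p = 0.000548, 1.70 with the cluster term). Tnfrsf1b, the second TNF receptor, rose at day 115 by 1.45 ± 0.15 (adjusted p = 8.86e-06, 1.35 with the cluster term). Il18r1 also rose past the threshold at day 115, by 1.29, and Tnfrsf1b at day 40, by 0.71. Cd7 rose by 1.58 at day 115 (adjusted p = 0.0186), but stood at 0.20 with the cluster as a term (adjusted p = 0.654). Itgb1, the beta 1 integrin chain, was 1.63 ± 0.30 higher at day 40 than at day 5 (adjusted p = 0.0103; 1.75 with the cluster term), a call lost without day-40 array 4 (adjusted p = 0.0653) and within cluster 1 (0.0899). Its second tested probe set stood at 1.41. In no list did a gene change between day 115 and day 40 by limma, where 8 of all 8695 probe sets changed and 1172 had an unadjusted p under 0.05.

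**Figure D4:**
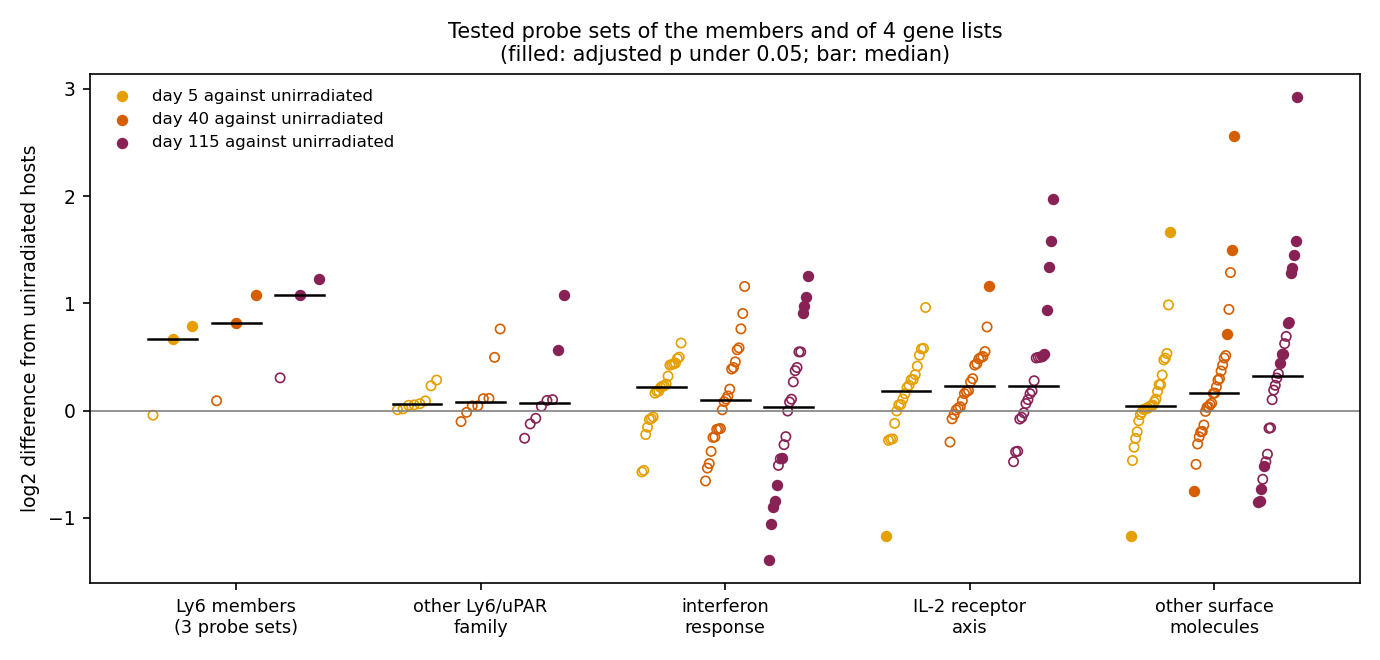
Log2 difference from unirradiated hosts at day 5, day 40 and day 115 for the 3 tested Ly6 probe sets and the tested genes of 4 lists; filled points passed an adjusted p of 0.05 and bars are medians. Filled points in the lists are few at day 5 and day 40, and at day 115 they lie on both sides of 0 in the interferon list.

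Across all 19 arrays the 1-symbol probe sets whose log2 signal was most like the Ly6c probe set were those of Cxcr3 (Pearson r = 0.937), Bbs9, a component of the cilium-trafficking BBSome (0.879), and S100a6, a calcium-binding protein gene (0.873). After the cluster means had been removed the values were 0.948, 0.929 and 0.847. Bbs9 averaged 169 at day 5, 239 at day 40, 287 at day 115 and 102 in unirradiated hosts, in the same order of groups as Ly6c. For 101487_f_at they were Dhrs1, a short-chain dehydrogenase gene (0.882), H2-D1, a classical MHC class I gene (0.88), and Bbs9 (0.88), with 0.822, 0.76 and 0.763 after removal of the cluster means. H2-D1 averaged 2460 at day 5, 3190 at day 40, 3440 at day 115 and 1220 in unirradiated hosts. These correlations describe arrays that share groups, hosts and clusters, so no p is given.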

How the data were processed

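In the deposited table each probe set had 1 intensity on each array. Per the file headers and values, the intensities are linear and never negative; the authors' method of making and scaling them, and any background correction, are not given in the sources used here. Of 12488 probe sets, 66 controls were left out; of the other 12422, 10833 had 1 symbol in the probe table, 396 several and 1193 none. Groups were taken from titles and, for unirradiated hosts, descriptions.

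Log2(signal + 16) was fitted by group over all 19 arrays with limma 3.58.1 in R 4.3.3, with an intensity trend, on 8695 probe sets whose mean was above the 30th percentile (26.4), with Benjamini-Hochberg adjustment over all tested and a threshold of 0.05. No further normalisation was applied. The number of arrays limits the precision. The fitting step was tested on simulated data. Array clusters came from average linkage on 1 minus the Pearson correlation. The members, lists and tests were chosen with earlier results of these data known. Genes named beside the members were, per list and comparison, up to 3 past the threshold with the largest difference, and per bright member the 3 with the highest correlation; other list genes were named after their values were seen. Alternatives were no filter or a stricter one, other pseudocounts, quantile normalisation, no trend, the cluster as a term or within clusters, the replicate number as a block, only the groups compared, and each array left out. Promoter windows came from RefSeq, build GRCm38.p6.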

Additional observations from a re-analysis of the deposited data

Results flagged for a closer look

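Unirradiated array 4 lay apart from the other 3 arrays of its group in Cd44 103005_s_at, with a signal of 18.68 where the others read 14.79 to 15.42; the gap was 0.838 of the group's range. This was 1 of 21 groups of member signals examined, and chance flags about 1 in 20.

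Beyond the comparisons with unirradiated hosts, the difference between irradiated groups itself passed the test for 2 member probe sets, both for day 115 against day 5. It was 0.559 on the log2 scale for the Ly6c probe set and 0.445 for Cd44 103005_s_at. The Ly6c difference was as large with the array cluster as a term, and the Cd44 call did not hold there.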

How the results depend on the processing

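Against unirradiated hosts, the calls of Ly6c at day 40 and day 115 and of Ly6e 101487_f_at at day 115 held under every alternative run. Of the 3 tested member probe sets, 2 rose at day 5, and this count was 1 after quantile normalisation, 0 with only the groups compared and 0 to 2 with 1 array left out. At day 40 it was 2, against 1 after quantile normalisation and 1 to 2 with 1 array left out; at day 115 it was 2 throughout. For day 115 against day 5 the count of 1 became 0 with the replicate block, with only the groups compared and within array cluster 1, and was 0 to 1 with 1 array left out, the loss coming without day-115 array 2. For day 40 against day 5 the count of 0 became 1 with the array cluster as a term. The dim member probe sets gave 2 calls over the 6 comparisons, against 0 with the cluster as a term, 1 with the replicate block and 0 to 4 with 1 array left out. The cause of these changes was not tested.

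The differences whose sign turned are these. Ly6e 101487_f_at, day 40 against day 5, was −0.0040 with the cluster as a term, −0.11 with the replicate block, −0.13 within cluster 1 and −0.0055 to 0.10 with 1 array left out. Ly6e 101488_r_at turned for day 115 against day 40 (−0.00069 with the term, −0.025 within cluster 1, −0.10 to 0.53 with 1 array left out), for day 115 against unirradiated (−0.12 with the term, −0.0091 to 0.62 with 1 left out), for day 40 against day 5 (−0.0073 to 0.24 with 1 left out), for day 40 against unirradiated (−0.12 with the term, −0.15 within cluster 2, −0.049 to 0.20 with 1 left out) and for day 5 against unirradiated (0.031 with the block, −0.10 to 0.025 with 1 left out). At day 115 against unirradiated the cluster term also turned Gbp3 to 0.033 and Pim1 to −0.037.

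In no pair of groups did every pair of same-numbered arrays deviate together. In all, 8 of 21 pairs correlated above 0.1. Between day 5 and day 40, numbers 1, 2 and 4 correlated at 0.639, 0.624 and 0.763 and number 3 at −0.666. In both groups numbers 1 and 2 were in array cluster 1 and number 4 in cluster 2. Number 3 was in cluster 1 at day 5 and in cluster 2 at day 40. The part of the clusters in these correlations was not tested. The replicate block was therefore not taken as a pairing. It moved the count of all changed probe sets at day 5 to 1707, against 69 without it. Over the alternatives other than leaving out an array, that count ranged from 40 to 1707 at day 5 and, against unirradiated hosts, from 111 to 454 around 130 at day 40 and from 384 to 3224 around 2427 at day 115. It ranged from 0 to 650 around 109 for day 40 against day 5, from 130 to 1865 around 1205 for day 115 against day 5 and from 0 to 63 around 8 for day 115 against day 40.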
